A study of Mus musculus
Mus spretus with 18 samples.

Results

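The membrane transporters described here are 9 genes chosen by name as renal ion cotransporters and exchangers: Slc12a1, Slc12a2, Slc12a3 and Slc12a7 of the cation-chloride cotransporters, Slc4a1, Slc4a2, Slc4a4 and Slc4a7 of the bicarbonate transporters, and the sodium-calcium exchanger Slc8a1. They are 9 of 38924 genes in the expression table, and they hold 136 of 97090 autosomal skipped exon (SE) events listed in 7 tissues. The rule uses gene names and no measured value, although earlier results of these data were known when it was set.

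Cation-chloride cotransporters move chloride together with sodium, potassium or both, and the bicarbonate transporters exchange bicarbonate for chloride or carry it with sodium. In the nephron, transporters of the luminal membrane take ions out of the tubular fluid, and exchangers and pumps of the basolateral membrane pass them on to the blood. Several of these genes make tissue-specific proteins from alternative exons or alternative start sites.

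The libraries came from F1 hybrids of female C57BL/6J, a laboratory strain, and male SPRET/EiJ, an inbred strain of another mouse species. Kidney, cerebral cortex, heart, lung, spleen and liver were taken from female mice aged 8 weeks, and embryonic stem cells (ESC) were 2 independent clones of the same cross, with 2 libraries per tissue and 14 in all. According to the study, the liver data came from its earlier work on the same animals. The liver labels name other C57BL substrains, and these libraries were treated as the same cross. Fibroblasts of 1 F1 line were treated with pladienolide B, an inhibitor of the splicing factor SF3B, at 0.1 μM for 4 h, or with DMSO, with 2 libraries each. The organs came from 2 animals, and the labels do not say which library belongs to which animal. The study describes tissue samples of the organs and does not say which part of the kidney was taken. The fibroblast replicates are not described as separate cultures, so p-values there measure only the spread between these libraries.

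Junction reads summed over SE events ranged from 46558287 to 129496306 per tissue library, with a median of 80580860. Reads assigned to the C57BL/6J allele had a median of 20563658 per library, and reads assigned to the SPRET/EiJ allele 20579174. The fibroblast libraries held between 129067054 and 151755602 junction reads. Percent spliced in (PSI) is the share of transcripts that include the alternative exon, on a scale from 0 to 1, and was computed where an event had at least 20 reads in both libraries of a tissue.

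The tissue labels were checked against markers. Nephron segment markers summed to 12658 and 12307 TPM, a share of a library's reads scaled by gene length, in the kidney libraries, with Umod, the urinary protein of the thick ascending limb, at 6113 and 5972 TPM. The highest sum of that list outside kidney was 1309 TPM, in 1 ESC library. Heart, lung, spleen, cortex and ESC markers each had their highest sums in the named tissue, and liver markers reached 104170 and 123360 TPM in liver, 1423 and 1223 TPM in cortex and 91.0 and 136 TPM in kidney. The kidney sum came mainly from Ttr, with a mean of 60.5 TPM, and Alb, with a mean of 47.4 TPM. Heart markers, for example, reached 34590 and 34468 TPM in heart and at most 491 TPM elsewhere. In tissue samples of mixed cells, fewer cells of a type and less RNA per cell cannot be told apart.

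Slc12a1 (ENSMUSG00000027202, GRCm38 chr2:125152510-125230002, plus strand) encodes the sodium-potassium-chloride cotransporter of the thick ascending limb, the target of loop diuretics. It stood at 957 and 734 TPM in kidney. The next tissue was lung with 0.761 and 0.789 TPM, followed by cortex with 0.176 and 0.111 TPM and ESC with 0.0819 and 0.141 TPM. Heart had 0.00797 and 0.0123 TPM, spleen 0.00430 and 0 TPM, and both liver libraries were listed at 0. Both kidney libraries lay far above every other library, with a kidney mean 1091 times that of lung. Cortex and ESC overlapped, as did spleen and liver.

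Slc12a3 (ENSMUSG00000031766, chr8:94329109-94366222, plus strand) encodes the thiazide-sensitive sodium-chloride cotransporter of the distal convoluted tubule. It reached 775 and 674 TPM in kidney, against 0.768 and 0.685 TPM in spleen, the next tissue. ESC had 0.532 and 0.202 TPM, cortex 0.206 and 0.231 TPM, heart 0.187 and 0.204 TPM and lung 0.139 and 0.177 TPM. Liver was lowest with 0.0122 and 0.0105 TPM. The kidney mean was 998 times the spleen mean, and no other library overlapped kidney. ESC overlapped with cortex and with heart.

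Slc4a4 (ENSMUSG00000060961, chr5:88793858-89239656, plus strand) encodes the electrogenic sodium-bicarbonate cotransporter that returns bicarbonate to the blood in the proximal tubule. Its kidney libraries had 234 and 215 TPM. Cortex had 87.4 and 81.7 TPM and liver 20.5 and 21.3 TPM, while heart and lung lay between 5.03 and 6.33 TPM. ESC had 0.758 and 0.557 TPM and spleen 0.622 and 0.385 TPM, which overlapped. Kidney was highest and cortex came next: kidney was 2.66 times cortex, and the libraries of these tissues did not overlap.

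Slc4a1 (ENSMUSG00000006574, chr11:102348820-102365281, minus strand) encodes the chloride-bicarbonate exchanger of red cells, which acid-secreting intercalated cells of the collecting duct also use. It had 62.1 and 51.4 TPM in kidney and 23.6 and 135 TPM in spleen. All other tissues were at 1.93 TPM or below. The spleen libraries lay on either side of kidney, so the order of these tissues could not be given.

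The spleen libraries differed in Slc4a1 by a ratio of 5.73, the second over the first. All 10 erythroid markers found, of 13 listed, were also higher in the second spleen library, with ratios of at least 1.78 and a median of 4.26. Over 16070 genes with a spleen mean of at least 1 TPM the median ratio was 0.915. Summed erythroid markers were 3499 and 7717 TPM in spleen and 828 and 986 TPM in kidney, where Hbb-bs was the most abundant with 548 and 663 TPM.

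Genes of the red cell membrane and its skeleton were lower in kidney than in spleen. Rhag, a red cell membrane protein, had 6.79 and 37.8 TPM in spleen and was listed at 0 and 0.0104 TPM in kidney. Ank1, an ankyrin of the membrane skeleton, had 3.60 and 17.4 TPM in spleen and 0.0810 and 0.189 TPM in kidney. Sptb, a spectrin, had 6.03 and 29.3 TPM in spleen and 2.77 and 2.97 TPM in kidney. Slc4a1 was above these 3 genes within every library of both tissues.

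**Figure D1:**
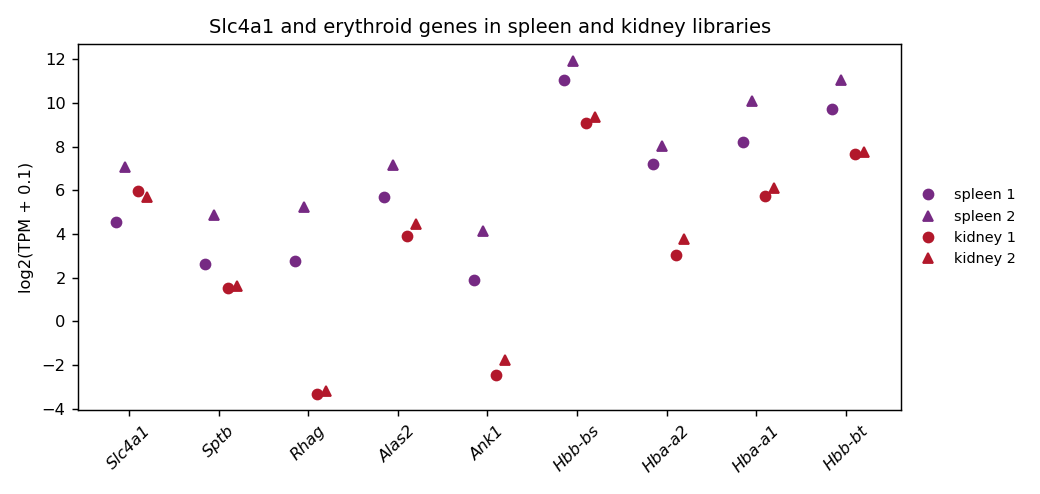
Levels of Slc4a1 and 8 of the erythroid genes on the log2(TPM + 0.1) scale, one point per library of spleen and kidney. Each gene is higher in the second spleen library than in the first, and Slc4a1 reached 62.1 and 51.4 TPM in kidney, where Rhag and Ank1 were at 0.189 TPM or below.

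Slc8a1 (ENSMUSG00000054640, chr17:81373105-81738387, minus strand) encodes a sodium-calcium exchanger that extrudes calcium from heart muscle and from distal tubule cells. Heart was highest with 186 and 194 TPM. Kidney followed with 63.1 and 55.3 TPM and cortex with 41.1 and 43.8 TPM, and spleen and lung lay between 5.56 and 11.3 TPM. Liver and ESC were at 0.518 TPM or below and overlapped. Kidney was second, at 0.312 times the heart mean, and overlapped with no other tissue.

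For each of the other 4 genes at least 1 other tissue was as high as kidney or higher. Slc12a7 (ENSMUSG00000017756, chr13:73733052-73816754, plus strand), a potassium-chloride cotransporter, had 165 and 155 TPM in ESC and 156 and 158 TPM in heart, which overlapped. Kidney came next with 66.2 and 65.3 TPM, and cortex was lowest with 3.51 and 3.34 TPM. Lung, liver and spleen lay between 27.8 and 42.4 TPM.

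Slc12a2 (ENSMUSG00000024597, chr18:57878512-57946821, plus strand), the widely expressed sodium-potassium-chloride cotransporter of secretory epithelia and neurons, was highest in cortex with 70.8 and 62.9 TPM. Lung and ESC lay between 29.8 and 34.9 TPM, and kidney followed with 17.1 and 17.3 TPM. Spleen had 12.1 and 13.2 TPM, heart 9.40 and 10.6 TPM and liver 5.27 and 5.62 TPM. No neighbours in this order overlapped.

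Slc4a2 (ENSMUSG00000028962, chr5:24423761-24440947, plus strand), a chloride-bicarbonate exchanger of many cell types, was the most even of the 9. Lung had 37.0 and 38.7 TPM and both kidney libraries 37.7 TPM, which overlapped, and liver was lowest with 13.6 and 13.8 TPM. Spleen, ESC and cortex overlapped with each other between 19.4 and 31.4 TPM.

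Slc4a7 (ENSMUSG00000021733, chr14:14703011-14799944, plus strand), an electroneutral sodium-bicarbonate cotransporter, was highest in ESC with 50.8 and 34.6 TPM. Cortex had 20.1 and 21.2 TPM, spleen 16.2 and 15.1 TPM and kidney 5.30 and 5.05 TPM. Heart, liver and lung lay between 2.57 and 4.96 TPM. Kidney lay between spleen and heart and overlapped with none of them.

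**Figure D2:**
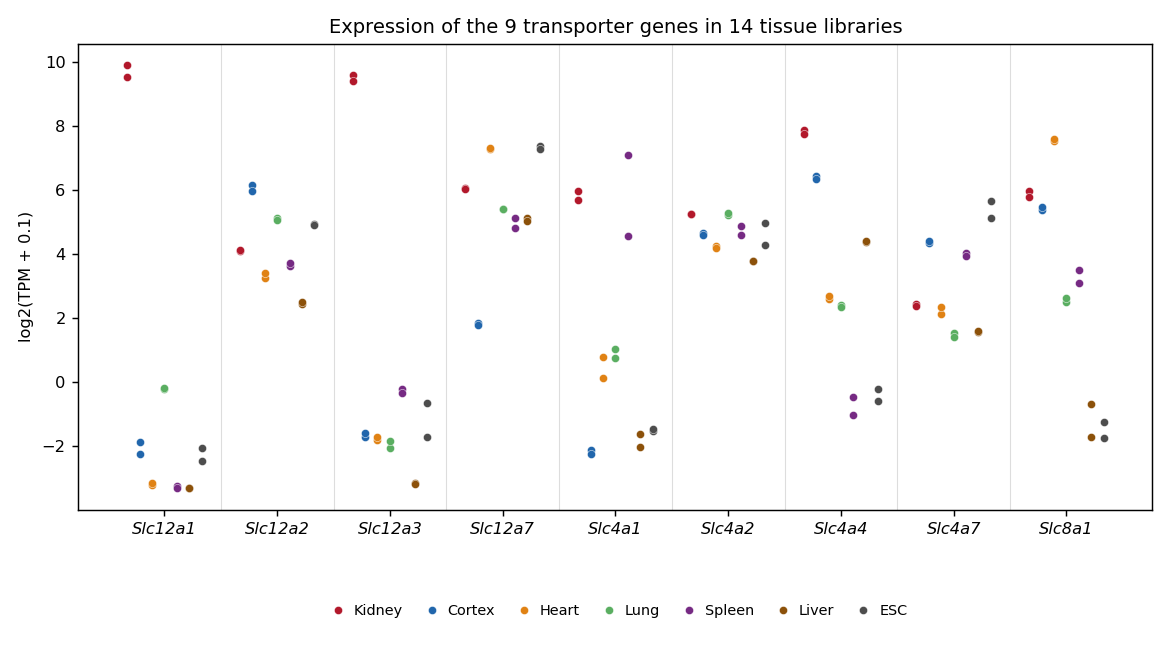
Expression of the 9 transporter genes on the log2(TPM + 0.1) scale, one point per library, coloured by tissue. Kidney stands apart for Slc12a1 and Slc12a3, is above cortex for Slc4a4, and lies among the other tissues for Slc12a2, Slc12a7, Slc4a2 and Slc4a7.

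To set kidney against the mean of the 6 other tissues, limma was fitted to log2(TPM + 0.1) over 22475 genes. A gene passed with an adjusted p under 0.05 and a difference of at least 1, a scale that understates differences of genes near 0 TPM. Of the 9 genes, 5 passed, all higher in kidney, beside 34.5% of all genes that passed and 16.4% that passed as higher. The median difference of the 9 was 3.20 and that of all genes was -0.15. Under quantile normalisation the median of all genes was -0.25, and the same 5 genes passed, beside 35.7% of all genes.

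The largest difference was that of Slc12a1, 12.09 (SE 0.139, limma adjusted p = 1.64e-11). Slc12a3 followed with 11.17 (SE 0.213, adjusted p = 3.68e-10). Slc4a1 differed by 5.55 (SE 0.488, adjusted p = 1.04e-05) and Slc4a4 by 5.37 (SE 0.144, adjusted p = 3.36e-09). The difference of Slc4a1 was 6.66 without the spleen libraries.

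Slc8a1 differed by 3.20 (SE 0.232, adjusted p = 2.84e-06). This contrast takes the mean of logs, so the low values of liver and ESC weighed in it although heart was higher than kidney. Slc12a7 with 0.73, Slc4a2 with 0.70 and Slc4a7 with -0.77 had adjusted p under 0.05 but stayed below the size limit. Slc12a2 gave -0.15 (adjusted p = 0.147).

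According to the methods of the study, kidney, cortex and heart were sequenced with longer reads, later trimmed, than spleen, lung and ESC. Within kidney, cortex and heart, 5 genes passed again, beside 42.7% of all genes, but Slc12a7 took the place of Slc8a1. Slc12a7 was 1.48 higher in kidney than the mean of cortex and heart (adjusted p = 1.42e-05), and Slc8a1 was -0.60 (adjusted p = 0.00158), the opposite sign to the contrast over all tissues. Slc12a1, Slc12a3, Slc4a1 and Slc4a4 were higher in kidney there by 12.33, 11.20, 6.69 and 3.29.

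The remaining genes of the same families were mixed. Of 14 found, 4 passed as higher in kidney, 4 as lower and 6 did not pass, with a median difference of 0.04. Slc4a9, a bicarbonate transporter of intercalated cells, stood at 113 and 111 TPM in kidney and was higher by 8.56, and Slc4a11, Slc4a5 and Slc4a3 were higher by 4.05, 2.85 and 1.23. Kidney was the highest tissue for Slc4a9 only of these 4. Slc4a3 had a mean of 13.4 TPM in kidney, 127 TPM in heart and 66.1 TPM in cortex. Slc4a11 had a mean of 22.9 TPM in kidney and 32.5 TPM in ESC, and Slc4a5 8.45 TPM in kidney and 18.3 TPM in lung. The neuronal exchangers Slc8a2 and Slc8a3 were lower, with differences of -2.31 and -1.67.

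The kinase pathway that controls Slc12a cotransporters, in which WNK kinases activate the kinases SPAK (Stk39) and OSR1 (Oxsr1), gave 3 genes higher, 2 lower and 7 that did not pass, of 12, with a median of 0.49. Wnk4 had 207 and 184 TPM in kidney and was higher by 5.72. Klhl3, an adaptor that directs WNK kinases to degradation, was higher by 3.18 with 33.6 and 30.1 TPM, and Stk39 by 2.03 with 36.7 and 35.4 TPM. Stk39 was nevertheless above kidney in cortex and heart, with means of 53.5 and 47.4 TPM. Wnk3 and Wnk2 were at -1.65 and -1.35. Wnk1 and Oxsr1 did not pass, with 0.58 and -0.35.

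Channels, pumps and subunits that work beside these transporters were higher than the mean of the other tissues. All 18 passed, with a median of 7.18, and kidney was the highest tissue for 12 of them. The sodium channel subunits Scnn1a, Scnn1b and Scnn1g had means of 233, 140 and 135 TPM in lung and 111, 75.9 and 57.5 TPM in kidney. Kcnj1, the potassium channel that recycles potassium for Slc12a1, had 328 and 296 TPM and was higher by 10.65. Bsnd, a chloride channel subunit, had 108 and 96.6 TPM and was higher by 8.70. Atp1b1, a sodium pump subunit, had 2273 and 1956 TPM and was higher by 3.28, but cortex had 2337 and 2465 TPM.

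All 5 carbonic anhydrases on the list, not the whole family, passed as higher, with a median of 4.12. These enzymes supply bicarbonate, and both kidney libraries were above all others for 2 of them. Car2 had 617 and 575 TPM in kidney and was higher by 3.23, but spleen had 180 and 741 TPM, with the second library above kidney. Car12 was higher by 7.66. All 14 nephron segment markers passed, 12 with kidney as the highest tissue, with a median of 8.85 and a maximum of 15.59 for Umod. Of the 10 erythroid markers 2 passed as higher and 4 as lower, with a median of -0.58. Beside these counts, 16.4% of all genes passed as higher in kidney and 18.2% as lower, and the lists were not tested as sets.

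The genes whose pattern was most like each transporter were taken by Pearson correlation of log2 values over the 14 libraries, as a description, since the libraries are replicates of 7 tissues. For Slc12a1 these were the solute carriers Slc22a22 (r = 0.997), Slc5a9 (0.996) and Slc5a8 (0.992). For Slc12a3 they were 4930469K13Rik (0.992), Abca13 (0.992) and Defb29 (0.990), and for Slc4a4 Fam20c (0.983), Gm17115 (0.971) and Tmem106b (0.955). Slc8a1 was most like the heart-enriched Dtnbp1 (0.975), Coq2 (0.971) and Adcy6 (0.959). The closest match was Armcx1 for Slc12a2 (0.985), Wdr12 for Slc4a7 (0.987), AI314831 for Slc4a1 (0.978), Tnc for Slc4a2 (0.953) and Nedd1 for Slc12a7 (0.922).

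Splicing was read from the SE tables, which list an event in a tissue only if both the inclusion and the skipping form had reads. The 136 events comprise 99 distinct exons. Kidney listed 104 of them, ESC 33, cortex 25, spleen 22, lung 17, heart 16 and liver 9. Slc12a1 had 35 events and Slc12a3 had 26, nearly all in kidney, where their reads were. In kidney, 98 events had at least 20 reads in both libraries, and 84 of these had a PSI over 0.9 in both, beside 81.1% of all 36610 kidney events. Over all tissues, 205 event and tissue pairs reached the minimum, and 169 were over 0.9 in both libraries.

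Of the 136 events, 38 were read in at least 2 tissues and could be compared. The difference between the highest and the lowest tissue PSI had a median of 0.0124, close to the 0.0145 of 47963 events of all genes. It was at least 0.2 in 6 of them, beside 8.6% of all events. These 6 events lie in Slc8a1, Slc4a4 and Slc4a7, and concern 5 exons.

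Slc8a1 carried 4 of the 6. Its exons code for the large intracellular loop of the exchanger, whose tissue variants are known. The 69-bp exon at chr17:81437745-81437813 was included at 0.992 and 0.977 in heart. Kidney had 0.172 and 0.173, cortex 0.254 and 0.214, lung 0.157 and 0.144 and spleen 0.180 and 0.175. This event sets the exon against transcripts that also lack the 15-bp exon described below. In it heart alone included the exon nearly always, and the other tissues lay between 0.144 and 0.254. Reads numbered 641 and 665 in kidney and 2730 and 2863 in heart. In another event, set against transcripts that join the 15-bp exon without the 69-bp exon, mean PSI ranged from 0.931 in lung to 0.999 in heart.

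The 15-bp exon at chr17:81441652-81441666 was also a heart exon. Spliced next to the 69-bp exon, it had a PSI of 0.979 and 0.976 in heart, 0.234 and 0.142 in cortex and 0.0130 and 0.0326 in kidney. Heart overlapped with neither of them. In kidney only 1 and 3 reads included it, against 64 and 75 that skipped it.

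Another of the 4 events sets the 15-bp exon against transcripts without either exon, with a PSI of 0.973 and 0.914 in heart and at most 0.0278 in every library of kidney, cortex, lung and spleen. In heart its inclusion reads came mainly from a junction that transcripts with the 69-bp exon also have, since only 4 and 1 reads, as counted in another event, joined the 15-bp exon directly past the 69-bp exon, beside 511 and 444 inclusion reads. In kidney there were 2 and 0 such reads, too few to say whether the exons were used together there.

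The 21-bp exon at chr17:81442203-81442223 had an intermediate level in kidney, 0.330 and 0.449. Heart included it at 0.996 and 0.999 and cortex at 0.103 and 0.105. The kidney values rest on 52 and 63 reads, and the 3 tissues did not overlap.

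Slc4a4 has a 97-bp exon at chr5:89232764-89232860 near its 3′ end. A brain form of the cotransporter lacks such an exon and so has another carboxy terminus. Kidney included it at 0.998 and 0.998, with 9860 and 8526 reads, and cortex at 0.285 and 0.300. Heart had 0.800 and 0.744, and lung 0.939 and 1.00 from 32 and 57 reads. Kidney and cortex, the tissues with the most Slc4a4, were thus the farthest apart.

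In Slc4a7 the 108-bp exon at chr14:14793950-14794057 was skipped mainly in heart, at 0.163 and 0.187. Kidney had 0.939 and 0.975, cortex 0.939 and 0.956, spleen 0.980 and 0.965 and ESC 0.986 and 0.954. Lung had 0.860 and 0.826 and liver 0.774 and 0.793. Heart and liver overlapped with no other tissue.

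**Figure D3:**
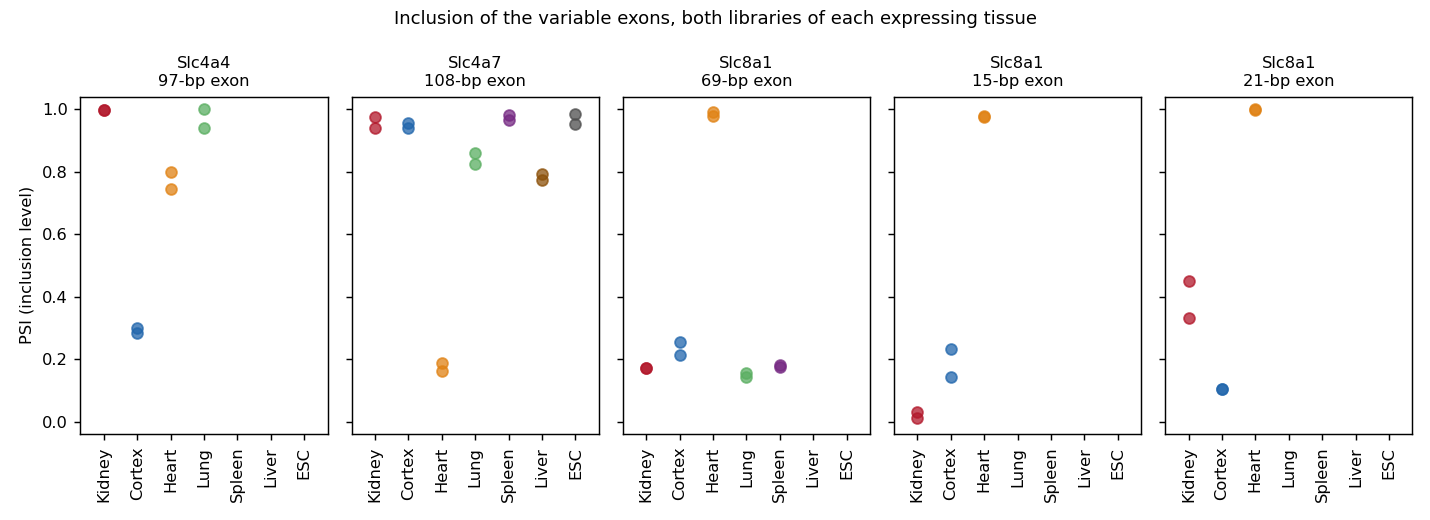
PSI of the exons of Slc8a1, Slc4a4 and Slc4a7 that differed by at least 0.2 between tissues, one point per library of each tissue with at least 20 reads in both, with the 15-bp exon shown as spliced next to the 69-bp exon. Heart is near 1 for the Slc8a1 exons and below 0.2 for the Slc4a7 exon, and cortex is lowest for the Slc4a4 exon.

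Kidney was then tested against the mean of the other tissues with a quasi-binomial model of inclusion against skipping reads over 25725 events, with Benjamini-Hochberg adjustment. The p-value sets the log odds of inclusion in kidney against the mean log odds of the other tissues, whereas the printed differences are of mean PSI. An event passed with an adjusted p under 0.05 and a PSI difference of at least 0.1. Of 14 events of these genes that were read in kidney and at least 2 other tissues, 3 passed, beside 3.23% of all events. All 3 were Slc8a1 exons with lower PSI in kidney, a direction in which 2.1% of all events passed, and none was higher, beside 1.13%.

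The 69-bp exon differed by -0.214 (quasi-binomial adjusted p = 2.88e-06), the 15-bp exon next to it by -0.560 (adjusted p = 3.10e-06) and the 21-bp exon by -0.161 (adjusted p = 0.000857). Leaving out the first or the second kidney library moved the last to -0.102 or -0.220. The difference of the 69-bp exon rested on heart. Without the heart libraries 0 of 12 events passed, beside 2.64% of all, and 0.5 added to each count gave 5, beside 3.44%. Without heart the 69-bp exon differed by -0.0147 (adjusted p = 0.973). The 15-bp event set against transcripts without either exon differed by -0.00816 there (adjusted p = 0.694). The 21-bp exon and the 15-bp exon next to the 69-bp exon had too few tissues left to be tested, so the count without heart does not cover them. That 15-bp exon was also lower in kidney, with 0.0130 and 0.0326, than in cortex, with 0.234 and 0.142. The 21-bp exon was in fact higher in kidney than in cortex, and on the PSI scale its test gave an adjusted p of 0.333.

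The Slc4a4 exon was higher in kidney by 0.320 and did not pass (adjusted p = 0.298), nor did the Slc4a7 exon with 0.175 (adjusted p = 0.319). On the PSI scale both passed, with adjusted p = 8.11e-10 and 0.000404, and 5 of the 14 events passed beside 4.78% of all. The Slc4a7 difference rested on heart too, and without the heart libraries it was 0.0536 (quasi-binomial adjusted p = 0.939), while that of Slc4a4 was 0.367 (adjusted p = 0.387). Within kidney, cortex and heart, 9 of the events could be tested and 6 passed, beside 13.1% of all, with a difference of 0.465 for Slc4a4 and 0.396 for Slc4a7.

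The other kidney exons are described by counts. Of 34 Slc12a1 events, 28 had a PSI over 0.9 in both libraries. In 5 of the rest the libraries lay far apart, and the last had 0.238 and 0.123 from 39 and 32 reads. Slc4a4 had 14 of 15 events over 0.9 in both libraries and Slc8a1 2 of 8. Of 25 Slc12a3 events, 24 were over 0.9 in both libraries, and all events of Slc12a2, Slc12a7, Slc4a2 and Slc4a7 with enough reads in kidney, 5, 3, 5 and 2 of them, had a PSI over 0.9. The Slc12a3 exception joined the 108-bp exon at chr8:94340770-94340877 to a farther upstream and a farther downstream exon, with 0.233 and 0.385 from 246 and 144 reads. The same exon joined to its nearest neighbours on both sides was at 1.00 and 0.986. The 5 Slc12a1 events and 1 of Slc8a1 differed by at least 0.2 in PSI between the kidney libraries. The 2 widest gaps were Slc12a1 events with 0.00730 and 1.00, and with 1.00 and 0.0147, from 33 to 172 reads per library.

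Slc12a1 holds 3 exons of equal length between the same flanking exons, and these were looked at after their values were seen. They are known as mutually exclusive variants of a membrane-spanning segment. Of the inclusion reads of all 3, the exon at chr2:125165495-125165590 took 14.1% and 14.8% in the kidney libraries. The exon at chr2:125166123-125166218 took 23.6% and 22.6%, and the exon at chr2:125166673-125166768 took 62.3% and 62.6%. The order was the same in both libraries and the gaps were far wider than the replicate difference. Only 171 and 105 reads skipped all 3.

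Each of these exons, taken alone against skipping, had a PSI of 0.927 and 0.942, 0.955 and 0.962, and 0.982 and 0.986, in order of position. An SE event measures each exon against the transcripts without any of them, so PSI did not show how the exons share the transcripts.

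**Figure D4:**
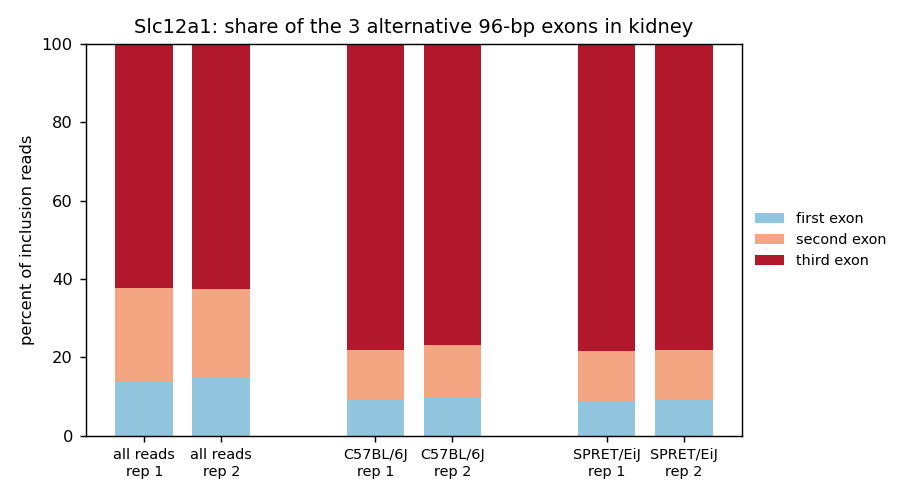
Percent of the inclusion reads of the 3 alternative 96-bp exons of Slc12a1 that each exon took in kidney, by library, for all reads and for reads assigned to either allele. The third exon leads in every set, and the C57BL/6J and SPRET/EiJ alleles lie within 2 percentage points of each other for each exon and library.

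Reads of the C57BL/6J allele gave 9.11% and 9.69% for the first exon, 12.7% and 13.4% for the second and 78.2% and 76.9% for the third. Reads of the SPRET/EiJ allele gave 8.53% and 9.23%, 13.2% and 12.8%, and 78.3% and 78.0%. Reads assigned to an allele must cover a strain difference, so these shares compare the alleles with each other and not with all reads.

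Slc4a1 has 2 listed events, described after their values were seen. The 74-bp exon at chr11:102362626-102362699 lies at the 5′ end, upstream of the internal start from which the kidney form of the exchanger is known to be made. It had a PSI of 0.0455 and 0.0350 in spleen, from 244 and 1974 reads. In kidney only 2 and 6 reads fell on this event, most of them skipping the exon. The event of the 170-bp exon at chr11:102351357-102351526, nearer the 3′ end, had 1748 and 1570 reads in kidney and a PSI of 1.00 and 0.994. The kidney libraries thus had many Slc4a1 reads at this 3′ event and almost none at this 5′ event. The 3′ event was listed in kidney only, so spleen gives no count to set beside it.

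Slc12a2 has a 48-bp exon at chr18:57934951-57934998, a known brain alternative exon, named here after its values were seen. Cortex had 0.868 and 0.925, and every other tissue read was at 0.975 or above, kidney at 0.986 and 0.990. Cortex was below all of them, but by less than 0.2.

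In a hybrid both alleles are read in the same cells. As a check of the labels, Rian, which is expressed from the maternal copy, had 99.4% C57BL/6J reads in kidney. In ESC the same check gave 28.7% for Rian and 34.7% for Meg3, another maternally expressed gene. For the event with the most allelic reads of each gene, the C57BL/6J share in kidney was 53.7% and 52.0% for Slc12a1 and 56.5% and 56.1% for Slc12a3. It was 50.7% and 52.1% for Slc4a4 and 41.2% and 41.9% for Slc4a1. Over all events it was 48.2% and 48.6%.

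Slc12a7 lay highest with 65.8% and 60.1%, and Slc4a7 lowest with 36.8% and 34.6%, the latter from 18 to 43 reads per allele and library. In ESC, where Rian and Meg3 were not mainly maternal, Slc4a2 had 70.3% and 74.5% C57BL/6J reads, and in spleen Slc4a7 had 37.7% and 36.2%. These shares mix allelic expression with how well reads of each strain were assigned, and were not tested.

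PSI of the alleles was compared in 140 event and tissue pairs with at least 20 reads per allele and library, 72 of them in kidney. None passed in the quasi-binomial model, in kidney beside 1.72% of all events and over all tissues beside 1.33%. With the library as a block, 0 of the 24320 kidney events passed and 1 event over all tissues, so these shares hold only without it. At an unadjusted p under 0.05 there were 11, or 7.86%, beside 10.7% of all events. In kidney there were 10 of 72, or 13.9%, beside 13.1% of all kidney events. The backgrounds of the other tissues were 1.57% in cortex, 1.75% in heart, 1.77% in lung, 1.48% in spleen, 1.2% in liver and 0.242% in ESC. The median absolute difference in kidney was 0.00281, beside 0.00882 for all kidney events. Most of the 72 kidney events lie in Slc12a1 and Slc12a3, some of them on the same exon, with many reads and a PSI near 1. The 2 medians are therefore not of like events. Over all tissues, 4 of the 140 reached 0.1.

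The 69-bp exon of Slc8a1 in kidney was one of these. The C57BL/6J allele had 0.106 and 0.0833 and the SPRET/EiJ allele 0.234 and 0.236, from 87 to 106 reads per allele and library. The alleles did not overlap and differed by -0.140, which did not pass (quasi-binomial adjusted p = 0.106, and 0.581 with the library as a block). Without events near a PSI of 0 or 1 it passed (adjusted p = 0.0215). In cortex the alleles overlapped, with 0.204 and 0.282 against 0.253 and 0.181, and whether kidney and cortex differ was not tested. In heart all values were at 0.992 or above.

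The widest difference was at the Slc12a3 108-bp exon joined to the farther exons, with 0.318 and 0.962 for C57BL/6J and 0.140 and 0.154 for SPRET/EiJ. It rested on the second library, where it was 0.808 against 0.178 in the first, and did not pass (adjusted p = 0.309). The others were a Slc4a4 69-bp exon in liver with -0.113 and a Slc4a7 175-bp exon in ESC with 0.100, and in both the replicates of an allele were farther apart than the alleles.

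**Figure D5:**
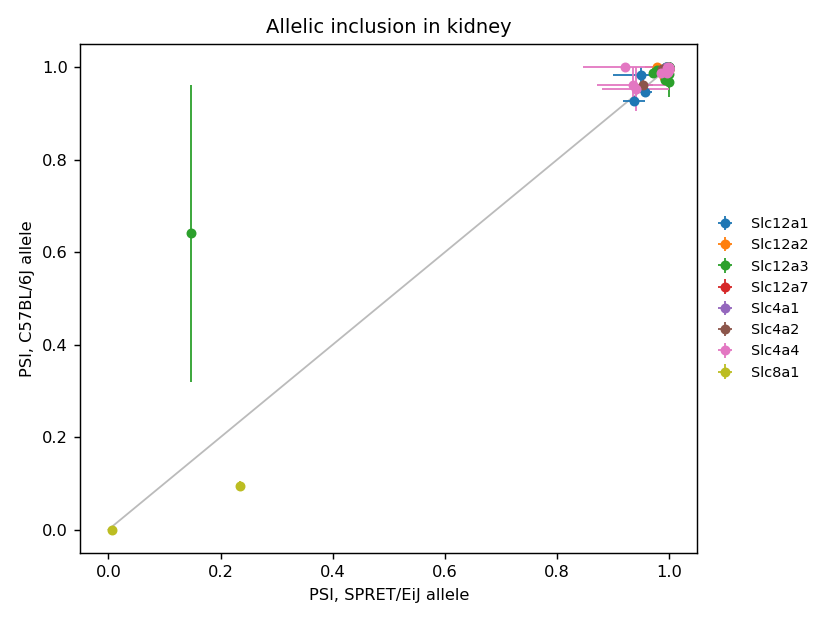
Mean PSI of the C57BL/6J allele against that of the SPRET/EiJ allele for 72 kidney events of the transporters, with bars for the 2 libraries and a line of equality. Most events sit in the upper right corner, and the Slc8a1 69-bp exon lies below the line at 0.0945 against 0.235.

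Pladienolide B was given to fibroblasts, which express only some of the genes. Slc4a2 had 97.3 and 91.8 TPM after DMSO, Slc12a7 58.1 and 54.2 TPM, Slc12a2 34.6 and 34.1 TPM and Slc4a7 19.6 and 19.4 TPM. Slc4a4 and Slc8a1 were at 1.95 TPM or below, Slc12a1 and Slc12a3 at 0.132 TPM or below, and Slc4a1 was listed at 0 in all 4 libraries.

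Of 36 listed SE events, 26 had enough reads, and 1 passed, as lower, beside 7.59% of all 54535 events that passed and 7.46% that passed as lower. It was the 134-bp exon of Slc4a7 at chr14:14765577-14765710, with 0.613 and 0.802 after pladienolide B, from 28 and 26 reads, and 1.00 and 1.00 after DMSO. The skipping form of this event joins exons on either side of the 134-bp and the 175-bp exon and so lacks both. Set against its nearest upstream exon, the 175-bp exon, the 134-bp exon was at 1.00 and 1.00 after pladienolide B and 1.00 and 0.993 after DMSO, with too few reads to be tested. In the event that passed, the groups did not overlap and differed by -0.292 (quasi-binomial adjusted p = 0.0201). The call was lost when any 1 of the 4 libraries was left out, with adjusted p from 0.0901 to 0.296. Next among the tested events was the 246-bp exon of the same gene with -0.0911 (adjusted p = 0.0611). Larger decreases of this gene had under 20 reads in 1 library after pladienolide B and were not tested. The 175-bp exon, set against the same skipping form as the event that passed, differed by -0.410, from 18 and 20 reads after treatment. Set against transcripts that keep the 134-bp exon, it differed by -0.232, from 19 and 40 reads. A 69-bp exon at chr14:14778826-14778894 differed by -0.410, from 19 and 39 reads.

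Of the 26 events, 21 were lower after treatment, with a median difference of -0.00362, beside 74.3% lower and a median of -0.00524 over all events. With a minimum of 10 reads 3 events passed, beside 7.97% of all, and with a minimum of 50 reads 0, beside 6.19%. At the minimum of 20 reads, 5 had an unadjusted p under 0.05, or 19.2%, beside 32.9% of all events.

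In expression, 6 of the genes were high enough to be tested, and 5 passed as lower after pladienolide B in limma, beside 57.8% of 13743 genes that passed and 53.6% that passed as lower. None passed as higher, beside 4.25%. The median difference of all genes was -1.15, so the values are given relative to it as well. Slc4a7 went from 19.6 and 19.4 TPM to 3.67 and 3.89 TPM, a difference of -2.34 (adjusted p = 3.21e-05) and -1.19 relative to the median. Slc4a4 differed by -1.80, Slc4a2 by -1.46, Slc12a7 by -1.46 and Slc12a2 by -1.37, or -0.65, -0.31, -0.31 and -0.22 relative to the median.

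Slc8a1 gave -0.84, 0.31 relative to the median, and did not pass the size limit. TPM are shares of a library, and after quantile normalisation, which gives all libraries one distribution, none of the 6 genes passed, beside 40.8% of all genes, while 5 had an adjusted p under 0.05. Of all genes that passed, 7.35% were higher after treatment as deposited and 45.9% under quantile normalisation. Slc8a1 turned to 0.57 there, and Slc4a7 was -0.78.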

How the data were processed

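RNA-seq libraries of 7 tissues and of fibroblasts were used. The authors trimmed the reads to one length, ran HISAT2 2.0.1 against mm10 and against a SPRET/EiJ version of it, and assigned each read to the closer strain. The deposited junction read counts for inclusion and skipping come from rMATS and are raw. Each cell lists both libraries of a group, and list position was taken as the replicate number. The deposited effective lengths are a score by rMATS and were used as divisors for PSI. The deposited TPM values were made by the authors with featureCounts on all reads. The deposited inclusion levels, p-values and FDR of rMATS were not used. Gene positions are from a RefSeq table of GRCm38.p6.

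PSI was tested with a quasi-binomial logistic model, with dispersions of at least 1 shrunk with limma 3.58.1 along a depth trend. TPM were tested with limma on log2(TPM + 0.1), for genes with a mean of at least 1 TPM in 1 group. Allelic events had to have allelic PSI within 0.1 of the PSI of all reads. All p-values were adjusted over all autosomal events, or all genes, by the Benjamini-Hochberg method. On simulated data with 200 changed features the models recovered 86.5% of changed events for kidney, 69% for kidney alleles and 78.5% for pladienolide B, at a logit change of 1.5, and 83.5% and 90.5% of changed genes at a log2 change of 2. The changed events were drawn only from those with intermediate inclusion, and all tissues other than kidney were given the same level. These rates therefore do not cover events with a PSI near 0 or 1, as most events of the transporters are, nor exons that vary among the other tissues.

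All 9 genes were named. Exons were named if they passed a test or differed by at least 0.2 between tissues, with at most 4 per gene. Further exons, such as exceptions and the widest allelic differences, were named for their values, and not all of these are marked in the text. The 3 most correlated genes of each were computed. The members, lists, tests and the form of the prior were chosen with earlier results of these data known. Both alleles of a library share that library, and their replicate differences correlated with r from 0.0843 to 0.401 over the 7 tissues. Python 3.11.15, numpy 2.4.6, scipy 1.17.1, pandas 2.3.3 and R 4.3.3 were used. Some genes of the lists are counted but not reported here one by one.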

Additional observations from a re-analysis of the deposited data

How the results depend on the processing

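Of 408 values of single genes or exons under an alternative setting, 382 were counted as unchanged in direction and side of the threshold, 2 reversed, 13 were weaker and 11 stronger. The 382 include the allelic differences with 1 library left out, which were not tested and which the rule used could only count as unchanged. Among them the Slc4a4 exon in liver ran from -0.227 to 0 and the Slc4a7 exon in ESC from 0.0118 to 0.189. Of 136 counts, 117 stayed within 1.5 times. Both reversals were Slc8a1 expression, with 0.57 after pladienolide B under quantile normalisation and -0.60 in kidney against cortex and heart alone.

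Of the kidney splicing tests, 5 events passed on the PSI scale, 5 with 0.5 added to each count, 0 without the heart libraries and 6 within cortex, heart and kidney, where 1801 events of all genes passed. These 4 settings were chosen after seeing the data. Leaving out 1 library kept 3 events, with 604 to 1035 of all. For expression in kidney, 5 genes passed each time, with 6947 to 7851 of all.

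For the alleles, the replicate block by library left 1 event of all genes past the threshold and none of the transporters. Without events near a PSI of 0 or 1 the calls were 1 (the Slc8a1 69-bp exon in kidney, adjusted p = 0.0215 in the quasi-binomial model) and 3810 of all genes. Leaving out 1 library leaves no test.

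After pladienolide B, 3 events of the transporters passed with a minimum of 10 reads, of 4656 of all genes that passed, and 0 with a minimum of 50, of 2869. With the replicate block 0 passed, of the transporters and of all genes, and with 1 library left out 0 of the transporters and between 0 and 2912 of all genes. In expression 0 genes passed under quantile normalisation and 5 with any 1 library left out.

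The organs came from 2 animals, but no label ties a replicate number to an animal. Over 21 tissue pairs the same-numbered deviations correlated with r from -0.0336 to 0.169 for TPM, 4 of them over 0.1, and from -0.0768 to 0.0551 for PSI. In fibroblasts r was -0.0246 for TPM and 0.00471 for PSI. The numbers were therefore not taken as pairs. The block changed no other count by more than 1.5 times. The planned edgeR test was not run. The minimum of 20 reads limits lowly expressed genes, so that outside kidney 1 exon of Slc12a1 could be read, in lung, and none of Slc12a3. The cause of each change was not tested.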
